A study of Rattus norvegicus with 4 samples.

Results

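VCP, also called p97, is a ring-shaped ATPase of the AAA family that pulls proteins tagged with ubiquitin out of membranes, chromatin and larger complexes and unfolds them for the proteasome. The genes described here are Vcp itself and 9 cofactors that bring it its substrates, which are Ufd1, Nploc4, Nsfl1c, Faf1, Faf2, Ubxn1, Ubxn4, Ubxn6 and Plaa. They were chosen by their names, as the rows of the expression table with these 10 symbols, and all 10 were found once each among 18699 genes. Earlier results of these data were known when these genes were chosen. They were followed in ventricular heart muscle cells of newborn Sprague Dawley rats that had received carfilzomib, a myeloma drug that blocks the proteasome irreversibly, or only the vehicle. There were 2 libraries from cells given 1 µM carfilzomib and 2 libraries from cells given vehicle, all collected after 24 h. All cells were wild type, came from rats aged 1 to 3 days, and grew in medium with 15% fetal bovine serum and 0.1 mM bromodeoxyuridine, which holds back dividing cells that are not cardiomyocytes. The study asked how the drug harms heart cells, and its title names SENP1 and DDX17. It is not stated whether libraries of the same group are separate cultures or animals. The p-values therefore reflect only how far these libraries spread, which may be technical. That spread was estimated with information shared over genes, since 2 libraries per group tell little for a single gene.

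VCP does little on its own and depends on its partners for the choice of substrate. UFD1 and NPL4, the product of Nploc4, form a pair that binds ubiquitin chains and feeds them to VCP, above all in the degradation of proteins from the endoplasmic reticulum (ERAD). Many cofactors with a UBX domain, a fold like that of ubiquitin, dock on the N-terminal domain of VCP. Cofactors of this kind send VCP to membranes, lipid droplets, endosomes or the Golgi. VCP also extracts the transcription factor NRF1 from the endoplasmic reticulum, a step before NRF1 can switch on proteasome genes when the proteasome is inhibited. Inherited mutations of human VCP cause a degenerative disease of muscle, bone and brain.

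The libraries held between 18655450 and 18884333 counts, and replicates differed by more than the noise of sampling. Of 14519 genes tested 60.7% passed the threshold, an edgeR quasi-likelihood adjusted p under 0.05 (Benjamini-Hochberg over all genes tested), and the median log2 fold change of all tested genes was 0.00. All fold changes are carfilzomib over vehicle. CPM are counts scaled to library size with edgeR's TMM factors, a value after ± is an SD between the 2 libraries where it is not marked SE, and n = 2 per group throughout. The cardiomyocyte markers were all present, and 8 of 8 were lower with carfilzomib, with a summed level of 5205 to 5411 CPM with carfilzomib and 24360 to 24420 CPM with vehicle. All 8 fibroblast markers were lower too, summing to 14800 to 15530 CPM with carfilzomib and 27720 to 28300 CPM with vehicle, as were all 6 smooth muscle markers, at 1386 to 1422 CPM with carfilzomib and 3946 to 4094 CPM with vehicle. Of 6 tested macrophage markers 6 were lower. With C1qa, which was too low to test, the 7 macrophage markers summed to 27.9 to 29.7 CPM with carfilzomib and 76.0 to 79.0 CPM with vehicle. Of 7 endothelial markers 1 was higher, 2 were lower and 4 did not pass, summing to 71.3 to 72.7 CPM with carfilzomib and 73.4 to 73.6 CPM with vehicle. No marker was at 0 in all libraries, and the lowest means were those of C1qa at 0.296 CPM and Adgre1 at 0.685 CPM. In bulk RNA, fewer cells of a type and less RNA per cell cannot be told apart, and the part of these markers in the values below was not tested.

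RefSeq promoters on the rat build GRCr8 were at hand for 8 of the 10 genes, and Nploc4 and Faf2 had no entry. The 250 bases before the start of 5 of them are shown, since 4 belong to the 5 genes that rose most and 1 to the gene that rose least. Capitals mark matches, on either strand, to TGACNNNGC (core of the antioxidant response element, the kind of site that NRF1 and NRF2 bind), GAANNTTC (core of the heat shock element), TGATGNAA (core of the ATF4 composite site), CACGTG (E-box) and CCAAT. The windows are chr5:62025388-62025637 on the minus strand for Vcp, chr3:160438458-160438707 on the plus strand for Nsfl1c, chr13:42292248-42292497 on the plus strand for Ubxn4, chr11:95689424-95689673 on the minus strand for Ufd1 and chr9:993155-993404 on the minus strand for Ubxn6.
Vcp: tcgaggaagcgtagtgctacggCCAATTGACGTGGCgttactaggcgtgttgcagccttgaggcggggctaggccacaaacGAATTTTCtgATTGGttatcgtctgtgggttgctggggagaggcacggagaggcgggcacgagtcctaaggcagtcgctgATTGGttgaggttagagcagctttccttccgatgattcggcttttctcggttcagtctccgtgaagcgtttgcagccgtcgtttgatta
Nsfl1c: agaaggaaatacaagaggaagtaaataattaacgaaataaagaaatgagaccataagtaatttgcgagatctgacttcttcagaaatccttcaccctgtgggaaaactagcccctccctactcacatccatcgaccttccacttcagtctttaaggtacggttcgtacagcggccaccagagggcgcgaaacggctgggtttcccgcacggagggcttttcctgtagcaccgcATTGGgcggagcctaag
Ubxn4: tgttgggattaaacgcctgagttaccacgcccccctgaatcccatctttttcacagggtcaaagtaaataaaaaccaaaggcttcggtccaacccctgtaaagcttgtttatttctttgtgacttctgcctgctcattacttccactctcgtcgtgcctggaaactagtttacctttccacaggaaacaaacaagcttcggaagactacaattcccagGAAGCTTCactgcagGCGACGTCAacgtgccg
Ufd1: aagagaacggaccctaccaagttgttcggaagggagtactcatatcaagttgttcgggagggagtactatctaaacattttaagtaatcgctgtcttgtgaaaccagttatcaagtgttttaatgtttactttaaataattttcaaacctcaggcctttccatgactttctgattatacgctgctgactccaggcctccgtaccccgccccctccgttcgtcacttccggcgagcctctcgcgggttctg
Ubxn6: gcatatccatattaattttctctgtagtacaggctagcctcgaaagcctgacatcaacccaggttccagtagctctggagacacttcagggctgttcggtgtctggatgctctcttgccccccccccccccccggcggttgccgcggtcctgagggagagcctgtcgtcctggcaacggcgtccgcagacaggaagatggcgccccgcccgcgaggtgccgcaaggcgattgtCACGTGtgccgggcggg
The Vcp window held the antioxidant core as TGACGTGGC at 223 to 215 bases before the start, right beside a CCAAT, and the heat shock core as GAATTTTC at 169 to 162 bases, with 2 further matches to CCAAT on the other strand. Ubxn4 was the other of the 8 windows with both cores, the antioxidant core at 17 to 9 bases on the minus strand and GAAGCTTC at 32 to 25 bases. Plaa, not shown, held the antioxidant core at 78 to 70 bases on the minus strand. That core was in 3 of 8 windows, against 10.1% of all 33469 promoters and 12.0% of the 12857 promoters of tested genes. The heat shock core was in 2 of 8 windows, against 7.23% of all promoters and 4.78% of those of tested genes. CCAAT was in 2 of 8, in Vcp and Nsfl1c, against 34.0% of all promoters and 34.6% of those of tested genes. The E-box was in 2 of 8, in Ubxn1 and Ubxn6, against 5.59% of all promoters and 7.65% of those of tested genes. The ATF4 core was in 0 of 8, against 3.40% of all promoters and 1.83% of those of tested genes. Ufd1 held none of the 5 motifs in this window. A match to a few letters is no evidence of binding, and its part in the changes below was not tested.

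All 10 genes rose with carfilzomib, by 1.30-fold to 2.55-fold, and in each both carfilzomib libraries lay above both vehicle libraries. Of all tested genes 30.6% rose and 39.8% had both carfilzomib libraries above both vehicle libraries. The median log2 fold change of the 10 genes was 1.10. At least 2-fold rises were seen in 5 of the 10, Vcp, Ufd1, Nploc4, Nsfl1c and Ubxn4, against 3.74% of all tested genes. None of the 10 fell or had both carfilzomib libraries below both vehicle libraries, against 30.1% and 40% of all tested genes. These shares are given as description, since the 10 genes were chosen with earlier results of these data known. All 10 had whole-number counts in the 4 libraries. Genes whose counts carry decimals are called genes with split reads here, whatever gave rise to those decimals.

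Vcp (gene ID 116643), the ATPase, stood at 1683 and 1717 CPM in the carfilzomib libraries, against 724 and 720 CPM in the vehicle libraries. The lower of the 2 carfilzomib values was 2.33 times the higher of the 2 vehicle values, and the replicates of each group lay close together. Its log2 fold change came to 1.24 ± 0.04 (SE), or 2.36-fold, at an edgeR adjusted p of 1.24e-12. Of all tested genes 97.5% had a lower log2 fold change. By FPKM, a level per kilobase of gene length, Vcp ranked 149 of 18699 genes with carfilzomib and 351 with vehicle.

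**Figure D1:**
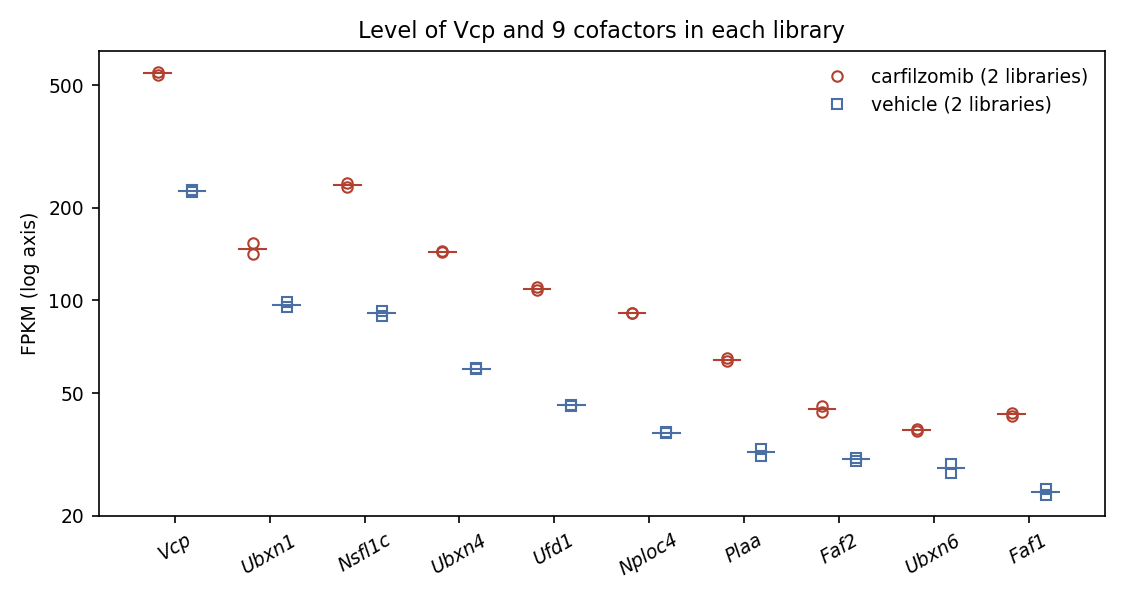
FPKM of Vcp and its 9 cofactors, on a log axis, with 1 point per library and a line at the mean of each group of 2. In every gene both carfilzomib libraries lie above both vehicle libraries, and Vcp is the highest of the 10 in both groups, at 547 FPKM with carfilzomib and 227 FPKM with vehicle.

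The pair that hands ubiquitinated proteins to VCP rose by nearly the same factor as VCP. Ufd1 (gene ID 84478) was at 190 and 185 CPM with carfilzomib, against 79.3 and 80.7 CPM with vehicle. Its log2 fold change came to 1.23 ± 0.05 (SE) at an edgeR adjusted p of 9.51e-12. Nploc4 (gene ID 140639), whose yeast counterpart holds the ubiquitin that is unfolded first, was at 327.0 and 327.1 CPM with carfilzomib, against 137 and 136 CPM with vehicle. The log2 fold change of Nploc4 was 1.26 ± 0.04 (SE) at an edgeR adjusted p of 2.13e-12. In both genes the groups stood far apart against replicate gaps of a few CPM.

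Nsfl1c (gene ID 83809) encodes p47, the cofactor with which VCP rebuilds Golgi and endoplasmic reticulum membranes, and it rose most of the 10. It was at 331 and 320 CPM with carfilzomib, against 125 and 130 CPM with vehicle, a 2.55-fold rise. On the log2 scale this was 1.35 ± 0.04 (SE) at an edgeR adjusted p of 1.82e-12. Ubxn4 (gene ID 304766), also known as erasin, sits in the membrane of the endoplasmic reticulum and promotes ERAD. It was at 320 and 322 CPM with carfilzomib, against 136 and 138 CPM with vehicle, with a log2 fold change of 1.23 ± 0.04 (SE) at an edgeR adjusted p of 2.70e-12.

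Plaa and Faf1 formed a middle tier. Plaa (gene ID 116645), the counterpart of yeast Ufd3, binds ubiquitin and the tail of VCP and acts with it on endosomes and damaged lysosomes. It was at 166 and 169 CPM with carfilzomib, against 88.2 and 83.8 CPM with vehicle, a 1.95-fold rise with a log2 fold change of 0.97 ± 0.05 (SE) at an edgeR adjusted p of 2.20e-10. Faf1 (gene ID 140657), a UBX protein first found as a partner of the death receptor Fas, was at 94.7 and 93.0 CPM with carfilzomib, against 52.6 and 55.0 CPM with vehicle. Its log2 fold change came to 0.80 ± 0.06 (SE), 1.75-fold, at an edgeR adjusted p of 1.31e-08. Both genes had a gap between the groups many times the gap between replicates.

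The smallest rises were those of 3 other UBX genes. Ubxn1 (gene ID 293719), a UBX protein that also binds ubiquitin, was at 142 and 131 CPM with carfilzomib, against 90.6 and 93.1 CPM with vehicle. Its 2 carfilzomib libraries differed by more, in CPM, than those of any other of the 10 genes but Vcp and Nsfl1c. Its log2 fold change came to 0.57 ± 0.05 (SE) at an edgeR adjusted p of 2.13e-07. Faf2 (gene ID 291000), or UBXD8, draws VCP to the endoplasmic reticulum and to lipid droplets. It was at 134 and 128 CPM with carfilzomib, against 91.1 and 94.0 CPM with vehicle, with a log2 fold change of 0.50 ± 0.05 (SE) at an edgeR adjusted p of 4.65e-07. Ubxn6 (gene ID 363332), or UBXD1, works with VCP and PLAA on endosomes and damaged lysosomes. It was at 65.0 and 66.2 CPM with carfilzomib, against 48.8 and 52.3 CPM with vehicle, with a log2 fold change of 0.38 ± 0.06 (SE), 1.30-fold, and an edgeR adjusted p of 9.02e-05. Its lower carfilzomib value was 1.24 times its higher vehicle value, the narrowest gap among the 10, and 79.4% of all tested genes had a lower log2 fold change.

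**Figure D2:**
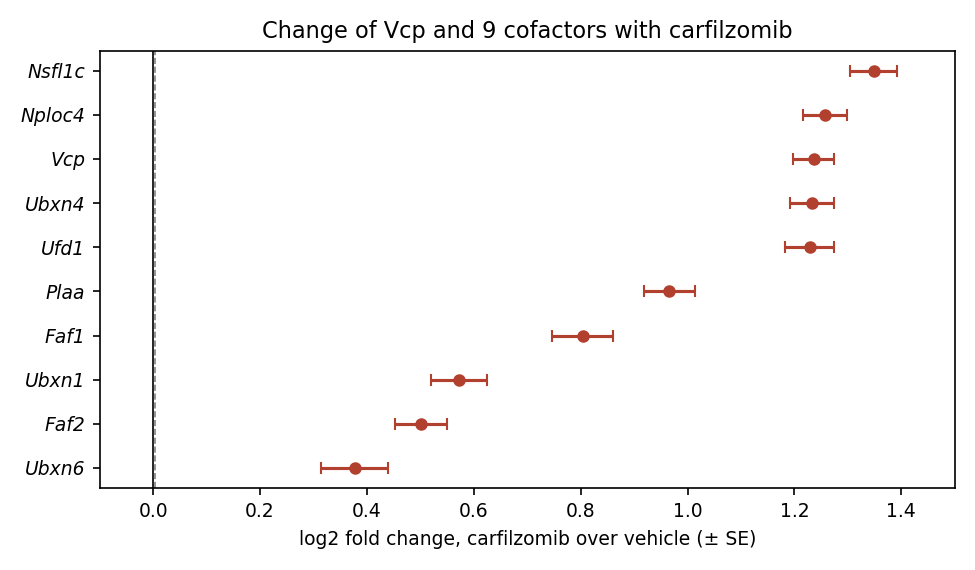
log2 fold change of each gene, carfilzomib over vehicle, with bars of 1 SE. The solid line is at 0 and the dashed line at the median of all tested genes, 0.00. The 5 genes at the top lie between 1.23 and 1.35, Plaa and Faf1 at 0.97 and 0.80, and Ubxn1, Faf2 and Ubxn6 between 0.38 and 0.57.

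The authors' deposited table lists all 10 genes among its 6063, with log2 fold changes from 0.38 for Ubxn6 to 1.35 for Nsfl1c. Its q-values, from DESeq2, run from 9.59e-281 for Vcp to 0.000478 for Ubxn6.

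Whether a cofactor rose by a different factor than Vcp was tested with edgeR's quasi-likelihood test on counts taken relative to the Vcp count of the same library, over the other 14518 tested genes. This test was chosen after the values had been seen, and the 9 comparisons share the same Vcp counts. In this test 93.3% of those genes passed with a log2 fold change below that of Vcp and 1.3% with one above it. A log2 fold change below that of Vcp was therefore the rule among genes. For Ubxn4, Ufd1 and Nploc4 no difference from Vcp passed, with differences on the log2 scale of 0.00 (95% interval -0.10 to 0.09), -0.01 (-0.11 to 0.10) and 0.02 (-0.07 to 0.11). As a ratio of fold changes to that of Vcp these intervals span 0.936 to 1.06 for Ubxn4, 0.925 to 1.07 for Ufd1 and 0.952 to 1.08 for Nploc4. Nsfl1c rose more than Vcp by 0.11 ± 0.05 (SE) on the log2 scale, with an edgeR adjusted p of 0.033. That call was lost without carfilzomib replicate 1, at 0.07 and an edgeR adjusted p of 0.274, and without vehicle replicate 1, at 0.08 and an edgeR adjusted p of 0.143.

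The other 5 cofactors rose less than Vcp. Plaa differed from it by -0.27 ± 0.05 (SE) on the log2 scale, with an edgeR adjusted p of 0.000106, and Faf1 by -0.43 ± 0.06 (SE) at an edgeR adjusted p of 7.86e-06. Ubxn1 differed by -0.66 ± 0.06 (SE) at an edgeR adjusted p of 5.64e-08, and Faf2 by -0.73 ± 0.05 (SE) at an edgeR adjusted p of 7.88e-09. The difference was largest for Ubxn6, at -0.86 ± 0.06 (SE) at an edgeR adjusted p of 1.04e-08. All 5 differences passed with any 1 library left out.

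Levels per length were also set against that of Vcp in each library. Ufd1 stood at 20.5% and 19.5% of the FPKM of Vcp with carfilzomib, against 19.9% and 20.3% with vehicle, and the groups overlapped. Ubxn4 was at 26.6% and 26.2% with carfilzomib, against 26.2% and 26.6% with vehicle, again with overlap. Nploc4 was at 16.8% and 16.5% of Vcp with carfilzomib, against 16.4% and 16.4% with vehicle, a small gap with no overlap. Ubxn1 was at 28.4% and 25.5% of Vcp with carfilzomib, against 41.7% and 43.7% with vehicle. Those 2 groups were clear of each other. Ubxn6 was at 6.94% and 6.92% with carfilzomib, against 12.1% and 13.0% with vehicle, and Faf2 at 8.40% and 7.86% with carfilzomib, against 13.2% and 13.7% with vehicle. Plaa and Faf1 were also lower against Vcp in both carfilzomib libraries than in both vehicle libraries, while Nsfl1c, at 44.4% and 42.1% with carfilzomib, against 39.2% and 40.8% with vehicle, was higher. Summed over the 9 cofactors, FPKM came to 168% ± 5.48 of that of Vcp with carfilzomib and 196% ± 4.04 with vehicle. FPKM rest on the gene lengths the authors used. These percentages are given as a description, and the test of each cofactor relative to Vcp is the one on counts given above.

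**Figure D3:**
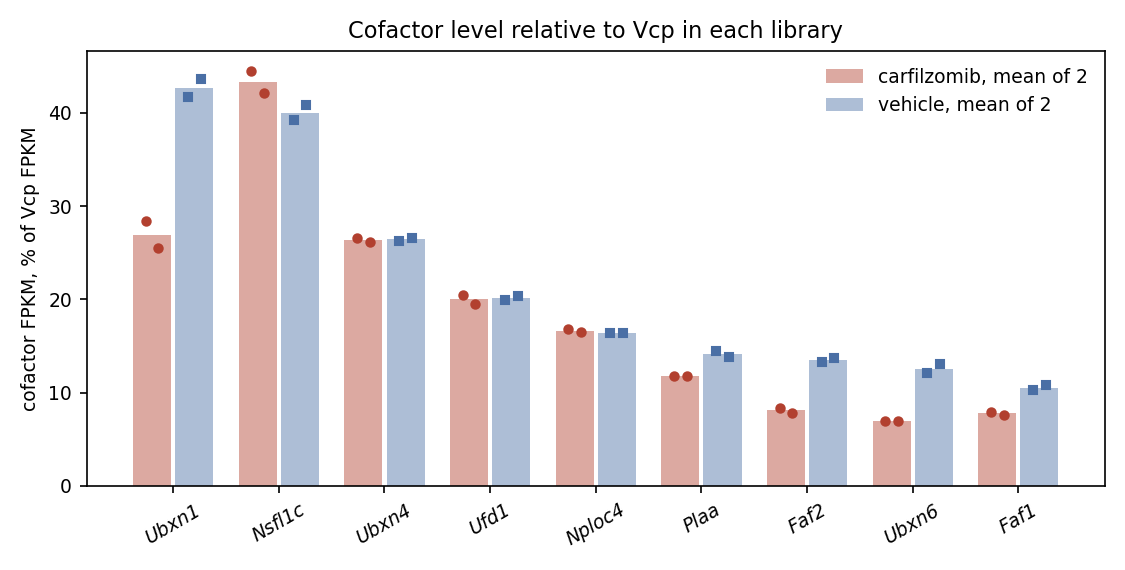
FPKM of each cofactor as a percentage of the FPKM of Vcp in the same library, with bars for the mean of 2 libraries and points for the libraries. Ubxn4 and Nploc4 stand at nearly the same height in both groups, at 26.4% and 16.6% with carfilzomib and 26.4% and 16.4% with vehicle, while Ubxn1 stands at 27.0% with carfilzomib and 42.7% with vehicle.

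The order of the levels changed in 2 places. With carfilzomib Nsfl1c, at 236 ± 5.42 FPKM, was second after Vcp, at 547 ± 8.22 FPKM. It was followed by Ubxn1 at 147 ± 8.90 and Ubxn4 at 144 ± 0.72 FPKM, which overlapped between libraries. Ufd1 had 109 ± 2.14, Nploc4 90.9 ± 0.12 and Plaa 64.2 ± 0.91 FPKM. At the low end Faf2 and Faf1, at 44.4 ± 1.43 and 42.6 ± 0.50 FPKM, differed by little more than the SD of Faf2, and Ubxn6 was last at 37.9 ± 0.49 FPKM. With vehicle Vcp led at 227 ± 1.54 FPKM, and Ubxn1, at 96.7 ± 2.53 FPKM, stood above Nsfl1c, at 90.7 ± 2.03 FPKM. Below them came Ubxn4 at 59.9 ± 0.23, Ufd1 at 45.6 ± 0.39 and Nploc4 at 37.1 ± 0.28 FPKM. Plaa at 32.1 ± 1.24 FPKM overlapped with no neighbour, but it differed from Faf2, at 30.5 ± 0.48 FPKM, by less than 2 of its own SD. Ubxn6 followed at 28.5 ± 1.31 and Faf1 was last at 23.9 ± 0.68 FPKM. As a share of the summed cofactor FPKM, Nsfl1c took 25.8% ± 0.14 with carfilzomib and 20.4% ± 0.17 with vehicle, and Ubxn1 16.1% ± 0.69 with carfilzomib and 21.7% ± 0.27 with vehicle.

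The genes whose pattern over the 4 libraries was nearest to that of Vcp included 2 of its cofactors. Likeness was the Euclidean distance in log2 CPM, centred on the vehicle mean, over 14518 other genes, and with 4 libraries it follows the size of the fold change for the most part. The nearest was Ghitm, an inner membrane protein of mitochondria, at a distance of 0.0229 and a log2 fold change of 1.24. It was followed by Ubxn4 at 0.0245, Usp5, which takes apart free ubiquitin chains, at 0.0308, Psmd2, a subunit of the cap of the proteasome, at 0.0311, and Nploc4 at 0.0332. Ufd1 ranked 9, Nsfl1c 79 and Plaa 290, whereas Faf1 ranked 591, Ubxn1 1356, Faf2 1768 and Ubxn6 2694. Ghitm and Usp5 carried split reads, so their values are uncertain if they share reads with near-identical genes.

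Beyond the 10 genes, other proteins that bind VCP moved less evenly. Of 22 tested genes of further UBX proteins and VCP-binding factors 12 rose and 2 fell, while 8 did not pass. Over all tested genes 30.6% rose and 30.1% fell. Among those 8, Svip, Ubxn7 and Derl3 had means of only 1.45, 3.78 and 4.38 CPM, where a change is hard to detect. The lowest mean among the 10 genes was that of Ubxn6, at 58.1 CPM. Zfand2a, also called AIRAP, a zinc finger protein induced by arsenite, rose most, at 235 and 243 CPM with carfilzomib, against 45.4 and 45.9 CPM with vehicle. Its log2 fold change was 2.39 ± 0.05 (SE). Ubxn2a, a relative of p47, was at 171 and 183 CPM with carfilzomib, against 55.6 and 55.1 CPM with vehicle, with a log2 fold change of 1.68 ± 0.05 (SE). Both carry split reads. Rhbdd1, a rhomboid protease of the endoplasmic reticulum, fell by 0.43 on the log2 scale, and Ubxn2b, a further relative of p47 named after its value was seen, fell by 0.36. So Nsfl1c and Ubxn2a rose while Ubxn2b fell, all of the p47 kind, and the median log2 fold change was 1.10 over the 10 genes and 0.27 in this wider list.

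The list of deubiquitinases that work with VCP, with the glycanase Ngly1, had 6 tested genes. All 6 rose, against 30.6% of all tested genes, and the median log2 fold change was 0.40. The number that rose was 4 with DESeq2 and also 4 without carfilzomib replicate 2. Vcpip1, a deubiquitinase needed for Golgi reassembly with VCP, rose by 0.71 ± 0.07 (SE) and Usp13, a gene with split reads, by 0.43 ± 0.04 (SE) on the log2 scale. In the route that activates NRF1, Vcp was the gene with the largest change. Ngly1, the glycanase that trims NRF1, rose by 0.27 ± 0.07 (SE) at an edgeR adjusted p of 0.00442. Named after their values were seen, Nfe2l1, which encodes NRF1, rose by 0.24, while Ddi2, the protease that cuts it, was at 0.01 and Syvn1, a ubiquitin ligase of ERAD, at 0.06, neither of which passed.

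The proteasome receives substrates that VCP has unfolded, and every gene tested in its 2 lists rose, against 30.6% of all tested genes. All 14 listed genes of the 20S core rose, by 0.86 to 2.30 on the log2 scale with a median of 1.31. All 12 listed non-ATPase genes of the 19S cap rose, by 0.93 to 1.93 with a median of 1.24. Psmb3 had the largest rise of the core, at 2.30 ± 0.05 (SE), and Psmd14, the deubiquitinase of the cap, that of the listed cap genes, at 1.93 ± 0.08 (SE). Vcp, Ufd1, Nploc4, Nsfl1c, Ubxn4 and Plaa lay inside both ranges, and Faf1, Ubxn1, Faf2 and Ubxn6 lay below the lowest gene of either list. Whether the lists differ was not tested.

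The rise was not shared evenly by other AAA ATPases. Of 22 tested genes 15 rose and 3 fell, while 4 did not pass, and the median log2 fold change was 0.28. Over all tested genes 30.6% rose and 30.1% fell. The list mixes the Psmc genes of the proteasome cap, at 0.76 to 1.55, with other ATPases, so its median describes neither part. The number that rose was 9 with DESeq2, and it was 10 with upper-quartile factors, without carfilzomib replicate 2 and without vehicle replicate 2. The largest rises were those of Psmc6 and Psmc5, at 1.55 ± 0.05 and 1.41 ± 0.04 (SE), which encode ATPases of the proteasome cap, and all 5 genes of the list at least 2-fold higher were such Psmc genes. Fignl1, an ATPase of DNA repair, fell by 1.47 on the log2 scale, at 7.12 and 8.74 CPM with carfilzomib, against 22.1 and 22.0 CPM with vehicle. The other genes that fell were Pex6, of peroxisomes, by 0.31 and Spg7, of mitochondria, by 0.28, and those that did not pass were Spata5, Spata5l1, Vps4a and Lonp1, at 0.17, 0.31, 0.06 and 0.00. Nsf, a relative of VCP that acts in membrane fusion, had a log2 fold change of 0.20 ± 0.06 (SE) at an edgeR adjusted p of 0.00991. It and these 6 were named after their values were seen, and Psmc6, Pex6, Spg7, Spata5l1 and Vps4a carry split reads.

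**Figure D4:**
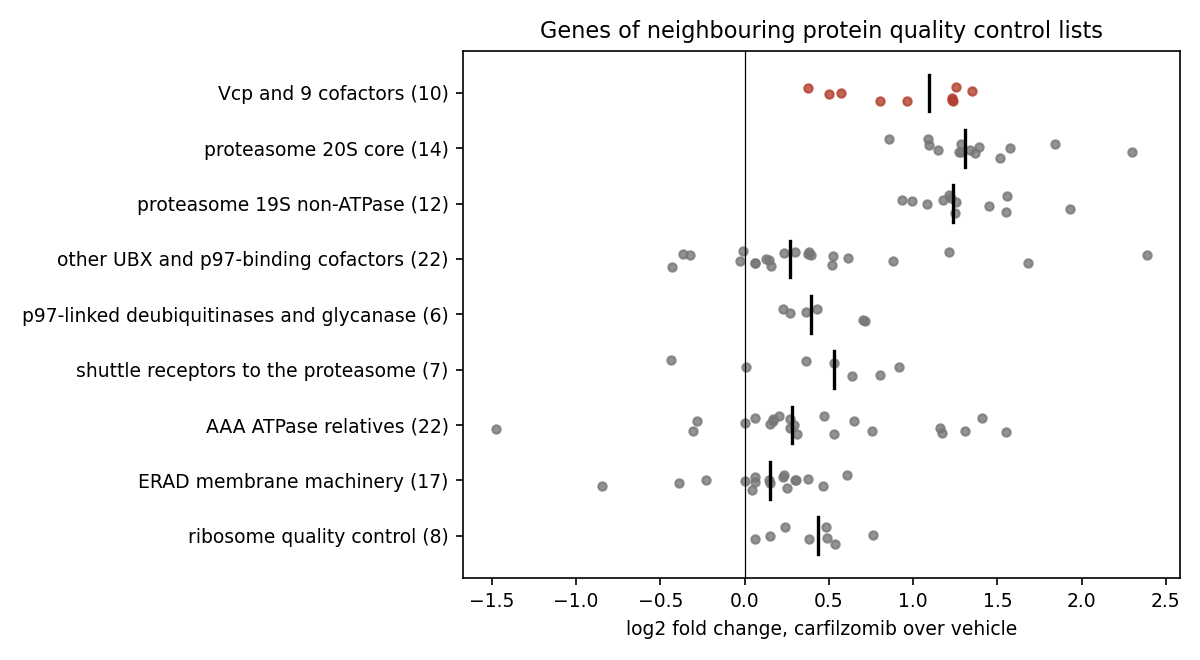
log2 fold change, carfilzomib over vehicle, of each tested gene in the lists of related genes, with 1 point per gene and a bar at the median of the list, whose number of genes is in brackets. The median of Vcp and its 9 cofactors, 1.10, lies nearer to those of the proteasome lists, 1.31 and 1.24, than to that of the membrane machinery of ERAD, 0.15. Faf1, Ubxn1, Faf2 and Ubxn6, between 0.38 and 0.80, lie below every gene of the proteasome lists. Points are spread vertically for clarity.

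All tested genes of the lists for ERAD, ribosome quality control and shuttle receptors had smaller log2 fold changes than Vcp, as did 97.5% of all tested genes. Over all tested genes 30.6% rose and 30.1% fell. Of 17 ERAD genes 10 rose and 3 fell, while 4 did not pass, and the median log2 fold change was 0.15. Aup1, which recruits ubiquitin-conjugating enzymes to the endoplasmic reticulum and lipid droplets, rose by 0.61 ± 0.05 (SE), and Edem3, a mannosidase with split reads, by 0.46 ± 0.05 (SE). Herpud1, a scaffold of the ERAD ligase, fell by 0.85, at 65.5 and 66.0 CPM with carfilzomib, against 117 and 119 CPM with vehicle. Named after their values were seen, Hm13, a peptidase, fell by 0.39 and Ube2g2, a ubiquitin-conjugating enzyme, by 0.23, while Syvn1, Ube2j2, Os9 and Edem1, between 0.00 and 0.06, did not pass. Of 8 genes of ribosome quality control 7 rose, while 1 did not pass, and the median was 0.43. Pelo, which rescues stalled ribosomes, rose by 0.76 ± 0.06 (SE) and Ascc3, a helicase that splits collided ribosomes, by 0.53 ± 0.06 (SE). Of 7 tested shuttle receptors, which ferry ubiquitinated proteins to the proteasome or to autophagosomes, 5 rose and 1 fell, while 1 did not pass, and the median was 0.53. Nbr1 rose by 0.92 ± 0.05 (SE) and Rad23b by 0.80 ± 0.04 (SE), while Ubqln4 fell by 0.43. The gene that did not pass was Tcf25, at 0.06, in ribosome quality control and Ddi2, at 0.01, among the shuttle receptors, both with split reads. Several genes stand in 2 of these lists, so the lists are not independent of each other.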

How the data were processed

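The titles of the 4 libraries gave their groups, and columns headed as control were taken as the vehicle libraries of the same number. The authors deposited unnormalised read counts per gene, per the file headers. They are estimated counts as deposited, since in 28.5% to 28.9% of genes per library they are not whole (tolerance 1e-06). The authors also deposited FPKM, per the file headers, and a table of log2 fold changes, p-values and q-values from DESeq2, which lists only genes with a q-value up to 0.0499 and by its signs runs carfilzomib over vehicle. Rnor_6.0 is the build in the submitters' processing notes. Of the tools named there (featureCounts 1.6.0, DESeq2, HISAT, Bowtie2, cutadapt 2.0, FastQC 0.11.8) only DESeq2 has a stated role, through the headers of the p-values and q-values. Neither strand nor the source of the decimals is given in these sources. A further 10 columns of the expression file were not used.

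Rounded counts were tested with edgeR 4.0.16 in R 4.3.3, after filterByExpr (minimum count 10, minimum total 15), with TMM factors of 0.987 to 1.01, a robust quasi-likelihood F test and Benjamini-Hochberg adjustment at 0.05. Dividing the absolute log2 fold change by the root of F gave the SE. Between replicates, chi-square over its degrees of freedom was 3.08 for carfilzomib and 3.42 for vehicle. For the test relative to Vcp the log of its count was the offset. Alternatives used DESeq2 1.42.0 and limma 3.58.1, other factors and filters, FPKM, a replicate block and each library left out. The scripts were tested on simulated data. Members and lists were chosen with earlier results of these data known. Named are all 10 members, the 5 genes nearest to Vcp and, from each list, the 2 largest rises and the largest fall among called genes with a mean of at least 10 CPM. Other names were chosen after their values were seen. Promoters came from RefSeq, build GRCr8.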

Additional observations from a re-analysis of the deposited data

How the results depend on the processing

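All 10 genes kept their direction and passed the threshold under all 14 alternatives. Vcp ranged from 1.17 to 1.27 on the log2 scale, Nsfl1c from 1.28 to 1.38 and Ubxn6, the gene nearest to the threshold, from 0.31 to 0.43, with an adjusted p of at most 0.00209 for Ubxn6. With 1 library left out, log2 fold changes of Ubxn1 lay between 0.51 and 0.63. With the replicate number as a block, Vcp had a log2 fold change of 1.24 and Ubxn6 of 0.38, and the block changed no call of the 10 genes. Same-numbered libraries did not deviate together (correlation -0.00232 over genes), and the labels name no shared batch, so the numbers were not taken as pairs. Of the AAA list 15 genes rose, against 9 with DESeq2, 10 with upper-quartile factors, and 10 to 13 with 1 library left out. Of the deubiquitinase list 6 rose, against 4 with DESeq2, 5 with the replicate block, and 4 to 6 with 1 library left out. The cause was not tested. Relative to Vcp, Ufd1 lay between -0.043 and 0.028 and Ubxn4 between -0.016 and 0.010 with 1 library left out, so their signs turned, and none of these values passed. Upper-quartile factors moved the median of all genes by -0.07 and library size alone by 0.03 on the log2 scale. With 2 libraries per group, small differences among Vcp, Ufd1, Nploc4 and Ubxn4 could not be resolved.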
